A study of Mus musculus with 40 samples.

Results

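Mitochondrial ribosomal protein genes were examined across the TSCmKO data set, a set of mRNA profiles of mouse extensor digitorum longus (EDL), a fast hindlimb muscle. Members were the genes with a symbol of the Mrpl or Mrps series followed by a number, at 1 or more CPM (counts per gene scaled to library size) in 5 or more of the 40 libraries, and 78 of the 78 symbols passed, among 13543 of 22844 genes. TSCmKO mice lack Tsc1, a brake on the growth kinase complex mTORC1, in muscle fibres. Controls (CON) were littermates that carried the floxed Tsc1 alleles (Tsc1fl/fl) without Cre recombinase, so both genotypes shared the strain Tsc1tm1Djk/J and the floxed locus. Mice of 3 or 9 months received vehicle or the mTORC1 inhibitor rapamycin (RM; 4 mg/kg in the labels, intraperitoneally, for 3 days; a figure legend of the study gives another dose), which gave 8 groups of 5 mice: 3mCON, 3mCON+RM, 3mTSCmKO, 3mTSCmKO+RM, 9mCON, 9mCON+RM, 9mTSCmKO and 9mTSCmKO+RM. Whole muscle was lysed, so cells other than fibres kept Tsc1 and contributed RNA, and a smaller share of a cell type cannot be told apart from less RNA per cell.

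Mitochondria carry their own ribosome, which translates the few membrane proteins of the respiratory chain that are encoded in mitochondrial DNA. All of its proteins are encoded in the nucleus, made in the cytosol and imported, whereas its RNAs are transcribed inside the organelle. Some of these proteins descend from bacterial ribosomal proteins and others were added in the mitochondrial lineage, and oxidative tissues such as muscle depend on the whole set.

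All 78 genes were protein-coding in GENCODE M21 (GRCm38), were spread over 17 chromosomes, and 0 lay on mitochondrial DNA. They comprised 51 proteins of the large subunit (30 counted as bacterial homologues and 21 as mitochondria-specific), 26 of the small subunit (15 and 11), and Mrps36, now known as a component of the 2-oxoglutarate dehydrogenase complex. In this grouping Mrps30 and Mrps18a stand with the large subunit despite their symbols, and Mrpl55, which is mitochondria-specific, was counted with the homologues. Sequence shared with other genes was limited: 4 genes, Mrps6, Mrpl27, Mrpl20 and Mrps14, had more than 5% of their transcripts' 31-base words in common with another gene of the table (15.8% for Mrps6), and their counts are less certain than the rest.

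On the TPM scale, which corrects counts for transcript length and library size, mean levels in 3mCON muscle ranged from 10.5 TPM for Mrpl57 to 794 TPM for Mrpl42, with a median of 58.5 TPM over the 78 genes. After Mrpl42 came Mrpl30 at 302 ± 18.0 TPM (SD, n = 5), Mrps21 at 259 ± 9.41 TPM, Mrpl51 at 242 ± 14.7 TPM and Mrpl12, the stalk protein that also binds the mitochondrial RNA polymerase, at 215 ± 16.8 TPM. Near the bottom were Mrps16 at 13.1 ± 0.999 TPM and Mrpl19 at 13.05 ± 1.91 TPM. Summed over the large subunit, 3mCON muscle held 4502 ± 180 TPM, and over the small subunit 1538 ± 79.1 TPM. These transcripts were thus unequal in level.

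Libraries held between 8883870 and 35224669 counts, of which members took 0.275 to 0.590%. Tsc1 itself was at 51.3 to 134 CPM in the 20 control libraries and 17.7 to 35.8 CPM in the 20 TSCmKO libraries, so every library matched its genotype label. The summed level of the members varied more at 9 than at 3 months: it spanned 2844 to 3699 CPM over the 20 libraries of the younger mice and 3038 to 5718 CPM over those of the older. At 9 months 1 library in each group stood above the rest, namely 9mCON replicate 2 (5718 CPM), 9mCON+RM replicate 1 (5212 CPM), 9mTSCmKO replicate 3 (5512 CPM) and 9mTSCmKO+RM replicate 1 (4822 CPM). In these 4 libraries 58 to 73 of the 78 genes were at their group's highest value, against 26.4 to 34.6% of all genes tested. A library of the younger mice, 3mCON+RM replicate 2, likewise held the highest value of its group for 66 of the 78 genes, against 29.2% of all genes.

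**Figure D1:**
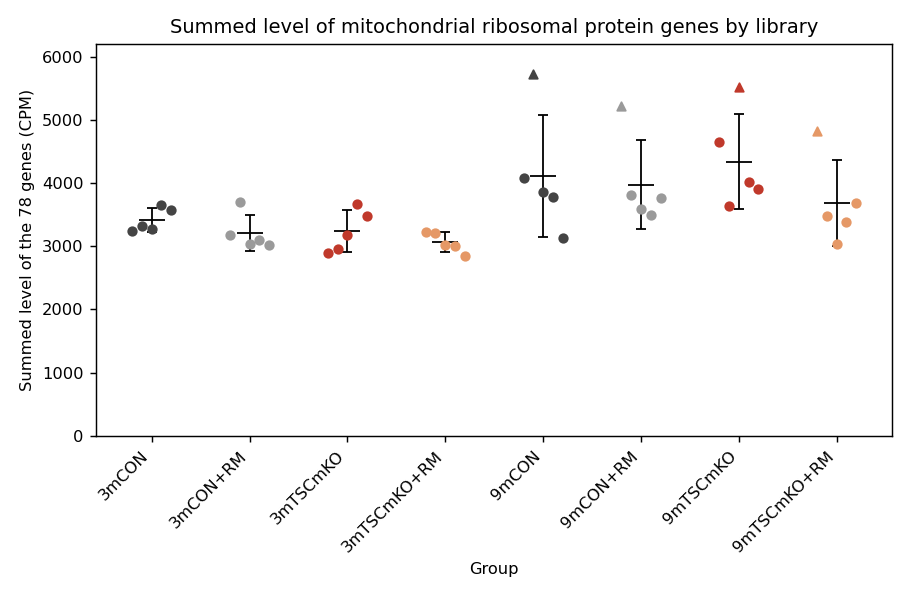
Summed CPM (y axis, linear from 0) of the 78 mitochondrial ribosomal protein genes in each of 40 libraries (points) by group (x axis), with group mean and SD; triangles mark the 4 libraries whose short transcripts were high. Group means ran from 3061 CPM in 3mTSCmKO+RM to 4340 CPM in 9mTSCmKO, and each of the 4 groups of 9 months holds 1 triangle above its other libraries.

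The same 4 libraries stood apart in genes outside the family. When each library's deviation from its group median was regressed on log2 transcript length over the other genes, the slope lay between -0.185 and -0.157 in these 4 and between -0.057 and 0.112 in the remaining 36, with 3mCON+RM replicate 2 at -0.057. Genes with transcripts of up to 1200 bases were 0.201 to 0.222 log2 units above the group median in them, and genes over 5000 bases deviated from it by -0.388 to -0.244 units. In 3 other libraries, 9mCON replicate 5, 9mTSCmKO replicate 2 and 9mTSCmKO+RM replicate 3, the slope was high (0.0869 to 0.112) and the members' mean deviation was -0.308 to -0.174 units. Members have short transcripts (median of 1148 bases, against 2399 for all genes tested), and their level moved with this slope; its part in the differences between groups was not tested, but counts are given without these libraries.

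**Figure D2:**
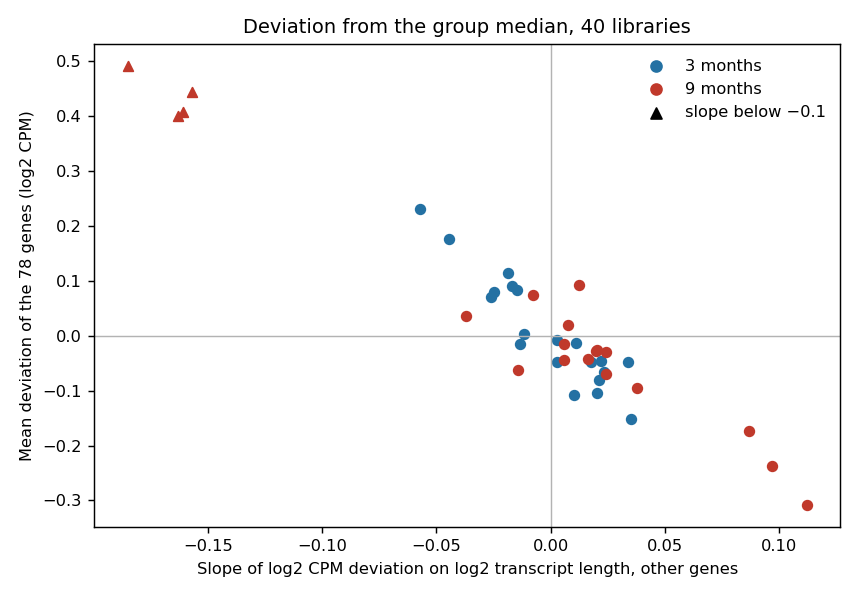
Mean log2 deviation of the 78 genes from their group median (y axis) against the slope of all other genes' deviations on log2 transcript length (x axis), for 40 libraries. The 4 triangles at the upper left (slopes of -0.185 to -0.157) are 0.400 to 0.491 log2 units above their group median.

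Members were compared between TSCmKO and control muscle at each age. Mrpl19 and Mrps22 were higher in TSCmKO muscle at both, and the number of other members called depended on the fit. At 9 months 12 of 78 genes were higher and 2 lower in 9mTSCmKO than in 9mCON (edgeR quasi-likelihood test, Benjamini-Hochberg adjusted p under 0.05). Of all genes tested 19.1% were called higher and 18.9% lower. The members' median log2 fold change was 0.12 and that of all genes -0.02, and with the length slope of each library as a covariate the members' median was 0.03. Rises were seen in both subunits: 8 of 51 large-subunit and 4 of 26 small-subunit genes.

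Largest among the 12 rises was that of Mrps25, a mitochondria-specific small-subunit protein, at 29.8 to 64.0 CPM in 9mCON and 40.2 to 94.5 CPM in 9mTSCmKO (log2 fold change 0.70 ± 0.19 SE, adjusted p = 0.00389, edgeR). Replicates 1 and 3 of 9mTSCmKO, at 85.9 and 94.5 CPM, stood above every control library, and the other 3 lay within the control range. Mrpl39 showed the same pair of high libraries, 80.4 and 81.1 CPM against 44.0 to 57.3 CPM in the other 3 (0.60 ± 0.15, adjusted p = 0.00132, edgeR). Mrps22, a mitochondria-specific protein of the small subunit, was at 14.6, 25.3, 18.6, 18.6 and 15.2 CPM in 9mCON and at 26.2, 25.1, 37.6, 24.8 and 24.1 CPM in 9mTSCmKO (0.58 ± 0.13, adjusted p = 0.00062, edgeR). Here the ranges met in a single control library, which was 9mCON replicate 2.

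Mrpl19, a large-subunit protein of bacterial ancestry, was the 1 member whose groups did not overlap at 9 months, where 8.77% of all genes did not overlap upwards and 7.2% downwards. Its level was 25.2, 18.7, 27.7, 26.7 and 26.9 CPM in 9mCON and 36.7, 38.4, 33.8, 37.4 and 34.6 CPM in 9mTSCmKO, a 1.44-fold difference (0.53 ± 0.10, adjusted p = 0.000105, edgeR). Unlike most members it was lowest, not highest, in the library 9mCON replicate 2, and its transcript is long (5000 bases). The remaining rises were smaller, from 0.30 for Mrpl3, a protein near the peptidyl transferase centre, to 0.52 for Mrpl41, and included Mrpl46, Mrps18c, Mrpl32, Mrpl57 and Mrps18a.

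Both genes that were lower at 9 months belong to the large subunit. Mrpl23, which lies at the exit of the peptide tunnel, was at 18.4 to 35.7 CPM in 9mCON and 13.8 to 25.7 CPM in 9mTSCmKO (-0.45 ± 0.16, adjusted p = 0.0206, edgeR). Mrpl36 was at 28 to 39.1 CPM in 9mCON and 22.9 to 29.3 CPM in 9mTSCmKO (-0.31 ± 0.11, adjusted p = 0.0266, edgeR). Mrps36, outside the ribosome, stood at -0.34 and did not pass. Without the 4 libraries of high short transcripts 19 members were higher and 0 lower by edgeR, 11 of them among the 14 above, whereas a fit on the 2 groups alone called only 2 genes. Both counts lack a share of all genes from the same fit and cannot be set against a background. Leaving out single libraries gave 7 (without 9mTSCmKO replicate 3) to 25 (without 9mCON replicate 2) called members.

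At 3 months 2 members were higher and 2 lower in 3mTSCmKO than in 3mCON, where 11.4% of all genes were called higher and 8.32% lower. Mrpl19 and Mrps22 rose at this age too, the 2 members called at both ages. Mrps22 was at 17.2, 19.3, 15.0, 15.5 and 16.5 CPM in 3mCON and 26.6, 21.7, 21.8, 22.4 and 24.2 CPM in 3mTSCmKO, with no overlap (0.49 ± 0.13, adjusted p = 0.00707, edgeR). Mrpl19 was at 18.9 to 28 CPM in 3mCON and 28.3 to 34.2 CPM in 3mTSCmKO, again without overlap (0.40 ± 0.10, adjusted p = 0.00416, edgeR).

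Mrpl17, a neighbour of the tunnel exit in the large subunit, fell at 3 months from 53.9, 58.8, 57.2, 60.1 and 57.6 CPM in 3mCON to 42.2, 42.6, 42.0, 47.8 and 51.3 CPM in 3mTSCmKO (-0.35 ± 0.09, adjusted p = 0.00429, edgeR). At 9 months its groups overlapped, at 61.6 to 84.1 CPM in 9mCON and 63.7 to 89.3 CPM in 9mTSCmKO. It was the 1 member whose genotype difference itself differed between ages, by 0.43 ± 0.13 log2 units (adjusted p = 0.037 for the interaction, edgeR), where 3.01% of all genes passed upwards and 1.93% downwards. Omitting single libraries ended that call in 12 cases, as did fitting the groups compared alone. In the same interaction Myl2 (3.01) and Tnni1 (2.76) of slow fibres were called higher. The erythroid genes Hbb-bs (-3.89) and Hbb-bt (-3.80) were called lower, and the part of these markers was not tested. Mrps5, from the entrance of the mRNA channel, was the other gene that fell at 3 months (-0.27 ± 0.09, adjusted p = 0.0263, edgeR). Without overlap between groups, 4 members were higher and 4 lower at this age, against 10.9% and 8.65% of all genes. With the 4 libraries of 9 months left out of the fit, 10 members were called at 3 months (4 higher, 6 lower), against 14 (7 higher, 7 lower) when the groups compared were fitted alone and 19 (5 higher, 14 lower) with the length slope as a covariate. The counts therefore give no order of the ages.

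Fibre type markers moved with genotype as well. The summed level of 6 fast fibre genes was 62653 to 78612 CPM in 9mTSCmKO and 96044 to 113018 CPM in 9mCON, and that of 7 slow or oxidative fibre genes was 672 to 1794 CPM against 109 to 360 CPM, with 6 of 7 called higher. Markers of other cells were lower in 9mTSCmKO in 3 of 6 endothelial, 3 of 5 fibroblast, 4 of 5 tendon, 2 of 5 adipocyte and 2 of 5 Schwann cell genes, whereas of 6 macrophage genes 1 was called, Cd68, which was higher (log2 fold change 1.80). Summed tendon genes were at 13.5 to 45.0 CPM in 9mTSCmKO against 43.1 to 359 CPM. At 3 months 3 of these markers were called: Myl2 of slow fibres was higher (2.03), and Mybpc2 of fast fibres (-0.62) and Scx of tendon (-0.96) were lower. Their part in the members' differences was not tested.

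Rapamycin for 3 days was followed in 9-month TSCmKO muscle by lower levels of many members and higher levels of a few. At 9 months 25 of 78 genes fell and 5 rose, against 16.8% of all genes lower and 15.8% higher. The median log2 fold change of the members was -0.27 and that of all genes -0.04. A negative value was found for 62 of 78 members, without a share of all genes beside it. By transcript length the members' median was -0.28 up to 800 bases (other genes -0.14) and -0.22 from 800 to 1200 bases (-0.12). Longer members were at -0.28 from 1200 to 2000 bases (-0.07), -0.197 from 2000 to 3000 bases (-0.02) and -0.35 from 3000 to 5000 bases (0.00029). With the length slope as a covariate the members' median was -0.13 (all genes -0.04), and 25 members were lower and 12 higher. No share of all genes called is given for that fit, so these counts cannot be set against a background. Falls involved 17 of 51 large-subunit and 8 of 26 small-subunit genes, and 9 members were lower and 4 higher without overlap between groups, where 7.15% and 8% of all genes were. At 3 months 10 members fell and 6 rose, near the 13% and 10.6% of all genes that did, with a median of -0.09 (all genes 0.01; -0.05 with the length slope as a covariate), and 9 members were lower and 6 higher without overlap, against 11.6% and 9.53%. The 2 ages used separate mice: 14 members were called at both, out of 30 called at 9 months and 16 at 3 months, and 14 of these 14 moved in the same direction. Over all genes tested 1930 were called at both ages, out of 4410 and 3196, and 1911 of them moved in the same direction, so that agreement in direction was not particular to the members.

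**Figure D3:**
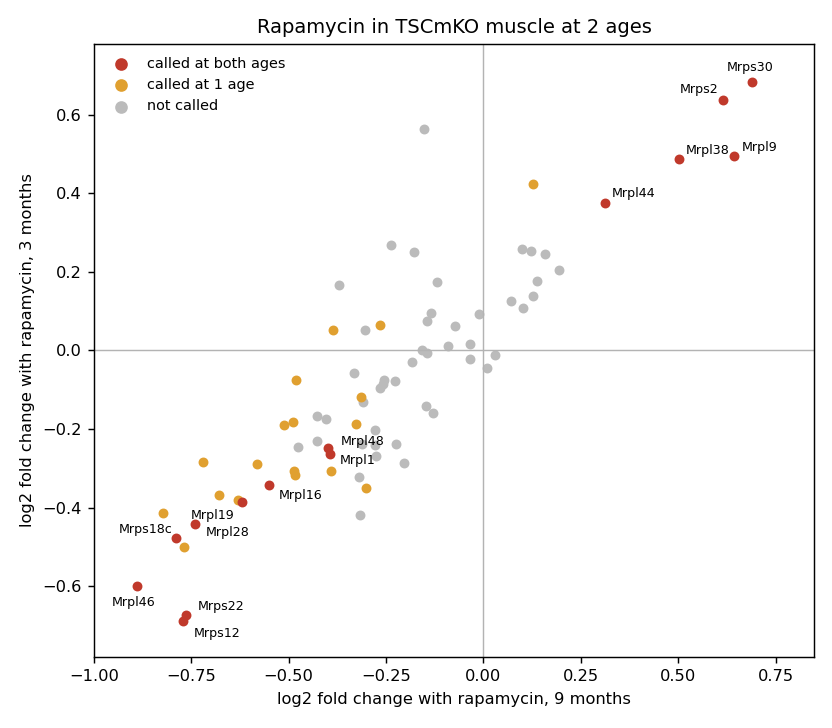
Log2 fold change with rapamycin in TSCmKO muscle at 9 months (x axis) and at 3 months (y axis) for the 78 genes (points), coloured by the edgeR call. The 14 genes called at both ages lie in 2 corners, 9 of them low at both ages and 5 high at both.

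Mrpl46 showed the largest fall at 9 months. Its level was 38.5, 33.8, 43.4, 29.0 and 26.8 CPM in 9mTSCmKO and 26.5, 15.6, 17.5, 14.3 and 18.7 CPM in 9mTSCmKO+RM, without overlap (-0.89 ± 0.16, 0.54-fold, adjusted p = 3.13e-05, edgeR). In the younger mice the groups were also apart, at 18.3 to 25.3 and 13.9 to 16.8 CPM (-0.60 ± 0.16, adjusted p = 0.0041, edgeR). This protein belongs to the mitochondria-specific layer of the large subunit.

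Mrps22 and Mrpl19, the genes raised by loss of Tsc1 at both ages, fell with rapamycin at both, in comparisons that share the untreated TSCmKO libraries with those above. Mrps22 reached 19.3, 15.9, 13.9, 15.7 and 16.5 CPM in 9mTSCmKO+RM (-0.76 ± 0.13, adjusted p = 2.81e-05, edgeR) and 10.8 to 17.2 CPM in 3mTSCmKO+RM (-0.67 ± 0.13, adjusted p = 0.000192, edgeR). Mrpl19 reached 20.8, 26.7, 22.5, 24.4 and 23.0 CPM in 9mTSCmKO+RM (-0.62 ± 0.10, adjusted p = 1.62e-05, edgeR) and 20.8 to 27.6 CPM in 3mTSCmKO+RM (-0.39 ± 0.10, adjusted p = 0.00514, edgeR). Treated TSCmKO and vehicle control ranges overlapped for both genes at both ages.

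Several small-subunit genes fell. Mrps12, the counterpart of the bacterial protein of the decoding centre, was at 13.7 to 24.7 CPM in 9mTSCmKO and 7.12 to 14.2 CPM in 9mTSCmKO+RM (-0.77 ± 0.20, adjusted p = 0.00314, edgeR), and at 11.2 to 18.0 and 7.92 to 10.7 CPM in the younger mice (-0.69 ± 0.20, adjusted p = 0.00987, edgeR). Mrps18c, one of 3 mammalian relatives of bacterial S18, was at 23.6 to 49.8 CPM in 9mTSCmKO and 14.6 to 22.4 CPM after treatment (-0.79 ± 0.17, adjusted p = 0.000383, edgeR). Mrps11 fell at 9 months (-0.82). In the large subunit Mrpl28 fell at both ages (-0.74 and -0.44), as did Mrpl16 and Mrpl48, whereas Mrpl45 (-0.77), at the membrane-facing side of the tunnel exit, Mrpl47 (-0.72), Mrpl27 (-0.63) and Mrpl12 (-0.49) were called at 9 months and not at 3 months. Whether those falls differed between the ages was not tested.

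Against the direction of most members, 5 rose with rapamycin in TSCmKO muscle at both ages: Mrps30, Mrps2, Mrpl9, Mrpl38 and Mrpl44. They were singled out after their values were seen, and they are not neighbours in the genome, lying on chromosomes 13, 2, 3, 11 and 1. Mrps30, a mitochondria-specific protein of the large subunit encoded at chr13:118378381-118387252, was at 44.4, 49.3, 67.3, 60.1 and 46.7 CPM in 9mTSCmKO and 103, 77.5, 85.6, 87.3 and 78.1 CPM in 9mTSCmKO+RM (0.69 ± 0.13, 1.61-fold, adjusted p = 4.73e-05, edgeR). In the younger mice it went from 36.7 to 46.6 CPM up to 54.7 to 77.5 CPM (0.68 ± 0.13, adjusted p = 7.3e-05, edgeR). Its groups did not overlap at either age.

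Mrpl9, a large-subunit protein of bacterial ancestry at chr3:94443318-94451130, was at 38.4 to 53.0 CPM in 9mTSCmKO and 63.8 to 86.8 CPM in 9mTSCmKO+RM (0.64 ± 0.12, adjusted p = 9.74e-05, edgeR), and at 38.2 to 52.6 and 55.5 to 64.8 CPM at 3 months (0.49 ± 0.12, adjusted p = 0.00254, edgeR). Mrps2, a bacterial-type protein of the small subunit at chr2:28468066-28471178, was at 18.9, 20.1, 26.5, 23.8 and 20.7 CPM in 9mTSCmKO and 41.0, 31.7, 28.5, 30.9 and 36.4 CPM after treatment (0.62 ± 0.12, adjusted p = 0.000173, edgeR), with a like difference at 3 months (0.64 ± 0.12, adjusted p = 0.000143, edgeR). Both genes were without overlap at both ages. Mrpl38 rose by 0.50 and 0.49 and Mrpl44, an RNase III-fold protein at the large subunit's surface, by 0.31 and 0.38 on the log2 scale. Mrpl17 rose at 3 months, from 42.0 to 51.3 up to 57.8 to 63.8 CPM (0.42 ± 0.09, adjusted p = 0.000468, edgeR), and was at 0.13 at 9 months, where it did not pass.

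**Figure D4:**
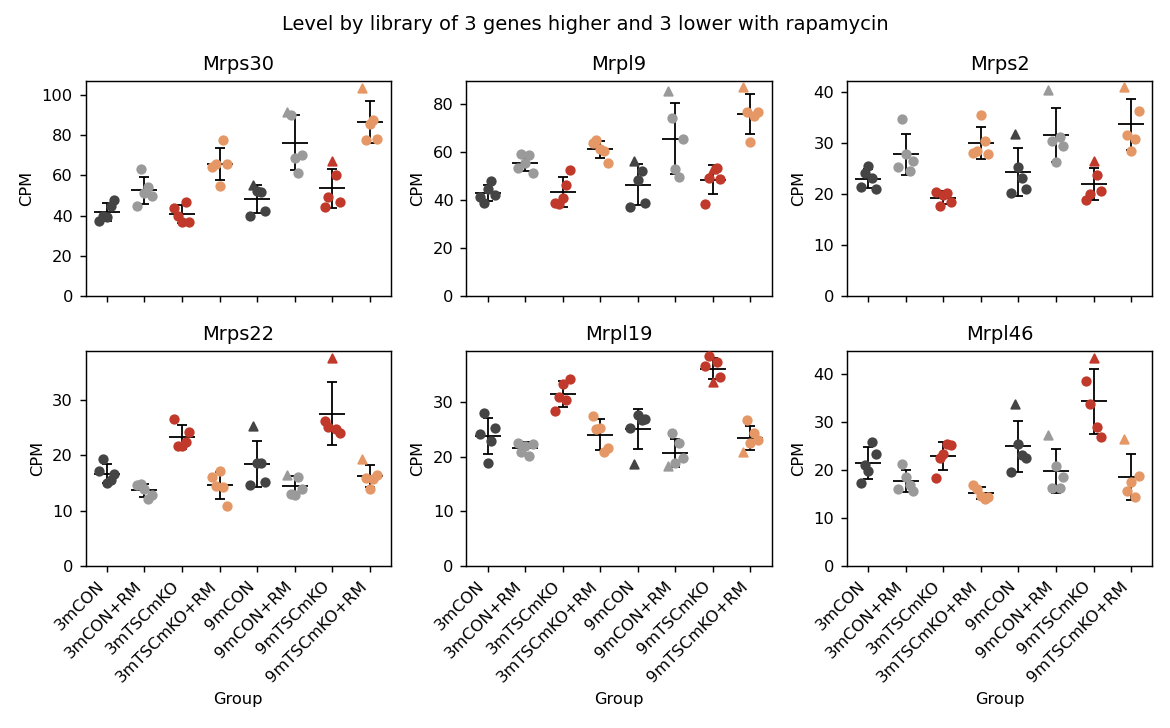
CPM in each library (y axes, linear from 0) of 3 genes higher with rapamycin (Mrps30, Mrpl9, Mrps2) and 3 lower (Mrps22, Mrpl19, Mrpl46), by group (x axis), with mean and SD; triangles mark the 4 libraries of high short transcripts. Mrps30 reaches 77.5 to 103 CPM in 9mTSCmKO+RM, above the 44.4 to 67.3 CPM of 9mTSCmKO, and Mrpl19 is at 33.8 to 38.4 CPM in 9mTSCmKO, above all other groups' libraries of that age.

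Without the 4 libraries of high short transcripts 30 members fell and 5 rose at 9 months, with 29 of the 35 among the 30 called in all libraries, whereas the fit on the groups compared alone called 19 (16 lower, 3 higher). At 3 months the fit without those libraries called 25 members (18 lower, 7 higher), as did the fit on the groups compared alone, whereas upper-quartile scaling gave 5 lower and 8 higher. Shares of all genes called in these fits are not given, and without them the counts at both ages cannot be read against a background. Of 6 fast fibre markers 4 were higher and 1 lower after treatment in TSCmKO muscle at 9 months, and 3 higher and 1 lower at 3 months (summed level 100075 to 122008 CPM in 9mTSCmKO+RM against 62653 to 78612 CPM, and 93434 to 124705 CPM in 3mTSCmKO+RM against 51777 to 113367 CPM). Of 7 slow or oxidative fibre genes Myh2 was higher and Myl2 lower at both ages (1.75 and -1.52 on the log2 scale at 9 months, 1.06 and -1.34 at 3 months), and Tnnc1 was lower at 9 months (-1.58). At 3 months 1 of 5 tendon genes (Scx, 2.04), 1 of 5 fibroblast genes (Col1a1, 1.19) and 2 of 6 macrophage genes (Cd68, 1.24, and Mrc1, 0.94) were higher. At 9 months 1 of 6 endothelial genes was higher, and 1 of 6 endothelial and 1 of 5 Schwann cell genes were lower. The part of these markers in the members' differences was not tested.

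The promoters of the members were searched for motifs. RefSeq promoters of GRCm38.p6, from 250 bases before to 50 bases after the annotated start, were found for 69 of the 78 genes, the first listed where there were several. A search on both strands covered 4 short motifs: GCGCATGCG (the NRF1 motif), CCGGAAG (the motif of ETS factors such as GABPA), CACGTG (the E-box) and AAGATGGCG (the YY1 motif). One or more was present in 53.6% of members' promoters and 23.5% of the 16113 promoters of all genes in the table. All members passed the filter on counts, whereas the 16113 include genes that did not, so the sets are unlike. Whether the members differ from other expressed genes was not tested. By motif the shares were 10.1% and 2.63% for NRF1, 36.2% and 12.8% for ETS, 7.25% and 8.69% for the E-box, and 11.6% and 2.22% for YY1. NRF1 sites can match both strands at 1 place, and no other overlap was removed.

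Among the 4 matched members higher with rapamycin in 9mTSCmKO muscle, 0 held the ETS motif, and among the 22 matched members that were lower 6 did, against 19 of the 43 not called. In the same order the NRF1 motif was held by 1, 2 and 4 members, YY1 by 0, 3 and 5, and the E-box by 0, 2 and 3. A link between motif and response was not tested. The promoters printed here belong to 3 genes that rose with rapamycin at both ages (Mrps30, Mrpl9 and Mrps2) and 4 that fell at both (Mrpl46, Mrps22, Mrps12 and Mrps18c), and were chosen after their values were seen; each runs 5′ to 3′ on the strand of its gene, and capitals mark motif matches. In the order printed they span chr13:118387203-118387502 (minus strand), chr3:94443086-94443385 (plus), chr2:28467816-28468115 (plus), chr7:78783040-78783339 (minus), chr9:98601630-98601929 (minus), chr7:28741772-28742071 (minus) and chr5:100798509-100798808 (plus).
Mrps30 promoter: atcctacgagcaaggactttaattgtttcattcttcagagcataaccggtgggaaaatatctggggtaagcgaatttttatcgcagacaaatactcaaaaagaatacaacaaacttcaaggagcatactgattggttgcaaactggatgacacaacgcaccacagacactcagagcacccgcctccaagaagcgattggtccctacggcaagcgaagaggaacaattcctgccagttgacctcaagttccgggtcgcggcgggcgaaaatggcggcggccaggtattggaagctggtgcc
Mrpl9 promoter: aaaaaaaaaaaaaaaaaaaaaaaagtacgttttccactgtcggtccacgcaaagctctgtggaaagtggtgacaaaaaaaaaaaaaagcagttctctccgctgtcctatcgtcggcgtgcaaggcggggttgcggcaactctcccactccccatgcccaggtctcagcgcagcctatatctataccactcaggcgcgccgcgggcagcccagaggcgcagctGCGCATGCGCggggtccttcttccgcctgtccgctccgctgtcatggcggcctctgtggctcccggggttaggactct
Mrps2 promoter: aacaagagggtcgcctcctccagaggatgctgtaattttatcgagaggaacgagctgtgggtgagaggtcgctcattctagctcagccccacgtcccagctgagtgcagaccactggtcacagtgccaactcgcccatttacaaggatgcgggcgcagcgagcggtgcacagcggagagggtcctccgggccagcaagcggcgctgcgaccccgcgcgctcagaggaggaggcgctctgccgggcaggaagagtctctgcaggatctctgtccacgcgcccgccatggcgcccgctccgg
Mrpl46 promoter: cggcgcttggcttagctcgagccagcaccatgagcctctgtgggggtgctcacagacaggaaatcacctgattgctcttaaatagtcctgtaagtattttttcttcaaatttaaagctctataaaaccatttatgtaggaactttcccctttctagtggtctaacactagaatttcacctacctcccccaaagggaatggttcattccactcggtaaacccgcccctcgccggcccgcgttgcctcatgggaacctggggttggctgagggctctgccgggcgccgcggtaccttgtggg
Mrps22 promoter: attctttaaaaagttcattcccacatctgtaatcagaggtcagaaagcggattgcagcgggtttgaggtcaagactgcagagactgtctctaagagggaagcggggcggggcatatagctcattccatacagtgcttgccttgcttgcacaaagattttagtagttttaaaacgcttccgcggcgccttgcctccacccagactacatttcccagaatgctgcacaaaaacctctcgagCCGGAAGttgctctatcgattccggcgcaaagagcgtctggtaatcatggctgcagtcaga
Mrps12 promoter: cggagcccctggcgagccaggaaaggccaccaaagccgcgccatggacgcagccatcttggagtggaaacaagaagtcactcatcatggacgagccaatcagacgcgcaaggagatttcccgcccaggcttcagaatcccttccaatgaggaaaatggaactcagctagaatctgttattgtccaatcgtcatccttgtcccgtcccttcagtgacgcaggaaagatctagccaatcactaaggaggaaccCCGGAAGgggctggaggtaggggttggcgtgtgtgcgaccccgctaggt
Mrps18c promoter: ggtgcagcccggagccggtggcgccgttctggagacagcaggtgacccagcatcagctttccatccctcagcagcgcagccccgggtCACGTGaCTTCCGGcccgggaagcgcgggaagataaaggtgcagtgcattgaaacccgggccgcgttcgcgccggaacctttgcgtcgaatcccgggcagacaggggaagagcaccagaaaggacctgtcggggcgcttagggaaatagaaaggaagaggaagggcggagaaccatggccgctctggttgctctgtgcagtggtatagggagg
Mrpl9 has the NRF1 motif shortly before its start site, Mrps22 the ETS motif at position -11 and Mrps12 the same motif at position 2, and Mrps18c an E-box at -163 and, on the other strand, an ETS match at -156. None of the 4 motifs was found in the windows of Mrps30, Mrps2 and Mrpl46. Matches describe these letters only and are not evidence of binding.

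Rapamycin was also given to control mice. At 9 months 4 members were higher, near the background (5.03% of all genes), and 0 lower by edgeR (6.82% of all genes). At an unadjusted p under 0.05 there were 6 higher and 9 lower, where 24.4% of all genes were at that p in either direction. DESeq2 called 2 lower. The 4 were Mrps30, Mrpl9, Mrps2 and Mrpl44, which also rose in TSCmKO muscle in other mice, and they were 4 of the 5 that rose there. Over all genes tested 839 were called in both genotypes, out of 4410 in TSCmKO and 1604 in control muscle, and 508 of them were higher in both. Mrps30 went from 39.8, 55.4, 52.4, 51.6 and 42.1 CPM in 9mCON to 91.5, 89.7, 68.4, 61.0 and 70.3 CPM in 9mCON+RM, without overlap (0.66 ± 0.13, adjusted p = 0.000515, edgeR). Mrpl9 rose by 0.50 ± 0.12 (adjusted p = 0.00615), Mrps2 by 0.38 ± 0.12 (adjusted p = 0.0364) and Mrpl44 by 0.35 ± 0.11 (adjusted p = 0.0371) in the same edgeR test, and these 3 lost the call when only the 2 groups were fitted. The members' median was -0.08, and -0.02 with the length slope as a covariate, a fit that called 9 higher and 6 lower, while upper-quartile scaling gave 3 higher and 5 lower. Tendon, fibroblast and macrophage markers were low in this group (4 of 5, 5 of 5 and 5 of 6 called lower), as was S100b of Schwann cells (-1.05). Fibroblast genes summed to 121 to 577 CPM in 9mCON+RM and 790 to 1522 CPM in 9mCON. The part of these markers was not tested.

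At 3 months 0 of 78 members passed edgeR in controls, where 0.362% of all genes were higher and 0.318% lower. There 7 members (and 8.98% of all genes) had an unadjusted p under 0.05, 4 higher and 3 lower, and DESeq2 called 0. Mrps30 was at 37.5 to 47.7 CPM in 3mCON and 45.0 to 63.1 CPM in 3mCON+RM, and Mrps22 at 15.0 to 19.3 and 12.1 to 14.9 CPM.

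The difference in the rapamycin response between genotypes was tested directly. At 9 months 0 members passed in either direction by edgeR or DESeq2 (2.56% of all genes higher, 2.31% lower), with 9 members at an unadjusted p under 0.05, all 9 with the more negative response in TSCmKO muscle, where 20.5% of all genes were at that p in either direction. At 3 months edgeR called 0 (1.36% of all genes higher, 2.09% lower), DESeq2 called 1, and 7 had an unadjusted p under 0.05 (15% of all genes). Without the 4 libraries of high short transcripts 2 members passed at 9 months.

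**Figure D5:**
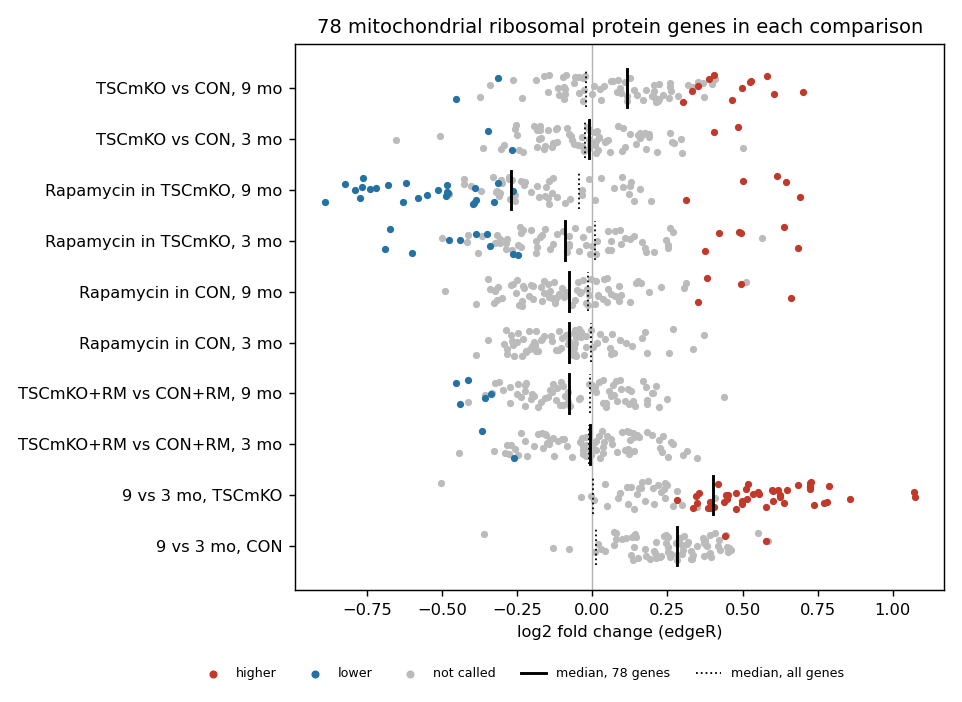
Log2 fold change (x axis) of each of the 78 genes (points) in 10 comparisons (rows), coloured by the edgeR call, with the median of the 78 genes (solid line) and of all genes tested (dotted line). The members' median is lowest for rapamycin in 9-month TSCmKO muscle (-0.27) and highest for 9 against 3 months in TSCmKO muscle (0.40).

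Rapamycin-treated TSCmKO and control muscle were also compared with each other. At 9 months 5 were lower in 9mTSCmKO+RM than in 9mCON+RM (9.33% of all genes) and 0 higher by edgeR and by DESeq2 (11.3% of all genes). At an unadjusted p under 0.05 there were 1 higher and 8 lower, where 31.6% of all genes were at that p in either direction. Mrpl36 and Mrpl23, lower in vehicle-treated TSCmKO muscle, were among the 5 called lower. Mrpl36 was at 18.6 to 24.0 CPM against 24.9 to 35.0 CPM, without overlap (-0.45 ± 0.11, adjusted p = 0.00334, edgeR), and Mrpl23 at 16.2 to 27.2 against 24.9 to 40.2 CPM (-0.44 ± 0.16, adjusted p = 0.0408, edgeR). Mrpl50, Mrpl16 and Mrpl30 completed the 5. The count was 3 when the groups compared were fitted alone, 8 without the 4 libraries of high short transcripts and 13 with the length slope as a covariate, and omitting single libraries gave 2 (without 9mTSCmKO+RM replicate 4) to 9 (without 9mTSCmKO+RM replicate 1). Of the 5 genes Mrpl50 passed in every alternative. Between these groups 4 of 7 slow or oxidative fibre genes and the macrophage gene Cd68 (1.61) were higher, and 2 of 6 fast fibre and 2 of 6 endothelial genes lower, and their part was not tested. At 3 months Mrpl50 (-0.37) and Mrpl48 (-0.26) were lower, against 4.36% of all genes, and 0 were higher by edgeR, against 5.67%, where DESeq2 called 1. At an unadjusted p under 0.05 there were 4 higher and 6 lower, where 21.1% of all genes were at that p in either direction. At this age Myl2 of slow fibres and Scx of tendon were higher, and their part was not tested. Omitting single libraries ended the Mrpl50 call in 7 cases and the Mrpl48 call in 9.

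Members were higher at 9 than at 3 months in TSCmKO muscle. There 47 of 78 were called higher and 0 lower by edgeR, against 19.1% and 18.3% of all genes. By DESeq2 and at an unadjusted p under 0.05, 0 members were lower, where 46.4% of all genes were at that p in either direction. The members' median log2 fold change was 0.40 (all genes 0.00359), or 0.14 with the length slope as a covariate. Calls covered 32 of 51 large-subunit and 15 of 26 small-subunit genes, and 75 of 78 members had a positive value. Neither this count of positive values nor that in controls has a share of all genes beside it. In controls 75 of 78 were also positive, with a median of 0.28 (0.07 with the length slope as a covariate), and 2 were called higher, Mrpl36 and Mrpl20, and 0 lower by edgeR and DESeq2, against 0.679% and 0.34% of all genes; 35 members were higher and 0 lower at an unadjusted p under 0.05, where 17.6% of all genes were in either direction. Both calls in controls were ended by omitting any of several single libraries (6 for Mrpl20, 7 for Mrpl36), the count ran from 0 to 19 (without 9mCON replicate 5), and the fit with the length slope called 3 members, all lower. The interaction of genotype with age, which tests whether the age difference differed between genotypes, passed for Mrpl17, 1 of the 78. Mrpl52 had the most negative value in both genotypes (-0.50 ± 0.34 in TSCmKO and -0.36 ± 0.34 in CON), and it did not pass.

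The largest rises with age in TSCmKO muscle were those of Mrpl51 and Mrps16, both 2.10-fold. Mrpl51 was at 84.9 to 125 CPM in 3mTSCmKO and at 402, 129, 355, 135 and 145 CPM in 9mTSCmKO, where replicates 1 and 3 stood far above the other 3 (1.07 ± 0.30, adjusted p = 0.00463, edgeR). Mrps16, at the small subunit's body, was at 9.48 to 16.2 CPM in 3mTSCmKO and 33.4, 21.8, 40.4, 17.8 and 18.3 CPM in 9mTSCmKO, with replicates 1 and 3 again highest (1.07 ± 0.22, adjusted p = 0.000246, edgeR). Mrps25 (0.86), Mrpl57 (0.79), Mrps10 (0.78), Mrps33 (0.77), Mrps35 (0.74) and Mrpl32 (0.73) followed. Mrpl17, which was low in 3mTSCmKO, had the smallest adjusted p of the family (0.73 ± 0.09, adjusted p = 1.4e-07, edgeR).

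Age moved with the libraries' insert size, 175 to 239 bases at 3 months and 223 to 308 bases at 9 months, with some overlap, and other short transcripts also had positive values with age. In TSCmKO muscle the median over other genes was 0.13 for transcripts of up to 800 bases, 0.20 from 800 to 1200 bases and -0.26 over 5000 bases. Members exceeded it within these lengths, at 0.25 for the 23 shortest and 0.40 for the next 18. For longer transcripts the members' median was 0.35 from 1200 to 2000 bases (other genes 0.10), 0.49 from 2000 to 3000 bases (-0.01) and 0.63 from 3000 to 5000 bases (-0.14 for other genes), and the 1 member over 5000 bases was at 0.86. Markers of fibre types and other cells moved with age in TSCmKO muscle in both directions. Of 7 slow or oxidative fibre genes 4 rose (Myl2 by 1.96, Tnnc1 by 1.70, Tnnt1 by 1.58 and Tnni1 by 1.46 on the log2 scale) and Myh2 fell, and of 6 fast fibre genes 3 fell. Among other cells' markers, 4 of 5 tendon, 5 of 5 adipocyte, 3 of 5 fibroblast, 4 of 6 endothelial and 4 of 5 erythroid genes fell, as did 1 of 6 macrophage genes, whereas Cd68 of macrophages (1.44), Scx of tendon (1.53) and 1 of 5 Schwann cell genes rose. Their part in the members' differences was not tested. With insert size as a covariate, and without 1 library that has none, the members' median was 0.42 in TSCmKO and 0.28 in controls, and 9 members were called in TSCmKO, all 9 among the 47 (0 lower, edgeR), while with the length slope as a covariate 21 were higher and 5 lower.

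Other genes of mitochondrial translation are given by their counts, beside 15.8% of all genes higher and 16.8% lower, and no difference between these groups of genes was tested. With rapamycin in 9mTSCmKO muscle, 3 of the 5 mitoribosome subunits with other symbols fell, Dap3 (-0.29), Ptcd3 (-0.37) and Aurkaip1 (-0.43), and 0 rose. Of 27 assembly and rRNA modification genes 6 rose and 3 fell; Tfb1m, the methyltransferase of the small subunit's rRNA, rose by 0.69 ± 0.15 and Rpusd4 by 0.66 ± 0.15. Among 16 aminoacyl-tRNA synthetases, which charge mitochondrial tRNAs, 6 rose, led by Wars2 (0.59), and 2 fell, Rars2 (-0.69) and Sars2 (-0.67). Among 13 translation factors 0 passed edgeR in either direction. Of 17 genes of mitochondrial DNA transcription and RNA handling 6 rose, including Twnk, the DNA helicase (0.85 ± 0.11), and Polrmt, the RNA polymerase (0.55 ± 0.13), and 3 fell, of which Slirp, a stabiliser of mitochondrial mRNAs, fell by 0.90 on the log2 scale.

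Of 77 nuclear-encoded respiratory chain genes 15 fell and 2 rose with rapamycin in 9mTSCmKO muscle, with a median of -0.30, and of 80 cytosolic ribosomal protein genes 2 fell and 0 rose by edgeR, with a median of -0.00492. Regulators of mitochondrial gene expression included Myc, which rose from 2.76 to 8.31 CPM up to 10.3 to 17.0 CPM (1.48 ± 0.28, adjusted p = 9.91e-05, edgeR), and Pprc1 (0.78 ± 0.11) and Yy1 (0.40 ± 0.09), with 4 of 15 higher and 1 lower. mRNAs encoded by mitochondrial DNA were not analysed here.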

How the data were processed

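The authors prepared poly(A) mRNA libraries from whole EDL muscle (directional, single-end reads), trimmed reads with cutadapt 1.9.1 and assigned them with kallisto 0.43.1 to protein-coding transcripts of GRCm38. Expected counts per gene were deposited by the authors as whole numbers, with reads that matched several transcripts shared equally, and TPM values, which correct for transcript length, were deposited beside them. Sharing reads makes counts of similar genes less certain. Groups came from the sample labels, 40 libraries in 8 groups of 5.

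Genes at 1 CPM or more in 5 or more libraries (13543) were tested in 1 edgeR 4.0.16 quasi-likelihood fit over all groups (R 4.3.3, robust, TMM scaling), with Benjamini-Hochberg adjustment over all of them at 0.05. Log2 fold changes carry their SE. TPM served only to compare levels between genes. The fit was tested on simulated data. Members, lists, the 23 genes chosen as landmarks and the tests were chosen with earlier results of these data known. Named members were these landmarks, the 8 called members with the largest rise and the 8 with the largest fall in each comparison, and members that left the common direction. Mrps6, Mrps14, Mrpl55, Mrpl42, Mrps21 and Mrpl52 are mentioned for sequence, grouping, level or an extreme value. These are not counted among the named members. Levels name the extremes. Alternatives were DESeq2 1.42.0, other scaling, filter and covariates, a replicate block, the groups compared alone and omission of libraries. Shares of all genes called come from the edgeR fit over all groups, and none are given for the alternatives. P-values judge differences between groups against the variation between these libraries.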

Additional observations from a re-analysis of the deposited data

Results flagged for a closer look

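Among 112 groups of 5 libraries (14 measures in 8 groups), 9 held a library far from the other 4 by Dixon's criterion (gap over range above 0.71), where chance gives about 1 in 20.

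The summed level of the 78 genes was 3699 CPM in 3mCON+RM replicate 2, against 3014 to 3173 CPM in the other 4, and 5212 CPM in 9mCON+RM replicate 1, against 3487 to 3816 CPM. The latter library also had a transcript-length slope of -0.157, against 0.00755 to 0.0376 in the others of its group, and a Mrps12 level of 17.9 CPM, against 8.02 to 10.8 CPM. In 9mCON replicate 2 Mrpl44 was at 32.6 CPM (22.4 to 25.2 CPM in the others) and Mrpl38 at 63.4 CPM (38.6 to 44.8 CPM), whereas Mrpl19, a long transcript, was at 18.7 CPM (25.2 to 27.7 CPM). Mrps22 stood at 37.6 CPM in 9mTSCmKO replicate 3, against 24.1 to 26.2 CPM. 9mCON+RM replicate 1, 9mCON replicate 2 and 9mTSCmKO replicate 3 are among the 4 with high short transcripts. Mrps12 was at 7.92 CPM in 3mTSCmKO+RM replicate 4, against 10.1 to 10.7 CPM.

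The difference of Mrpl17 between TSCmKO and control muscle changed with age by 0.43 log2 units, which passed the test of the interaction.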

How the results depend on the processing

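Counts of called members are given per comparison as 9- or 3-month TSCmKO against CON (14 and 4 in the reported fit), its change with age (1), rapamycin in TSCmKO (30 and 16), rapamycin in CON (4 and 0), the genotype difference in that response (0 and 0), 9 against 3 months in CON and TSCmKO (2 and 47), and TSCmKO+RM against CON+RM (5 and 2). With only the groups compared in the fit, genotype gave 2 at 9 and 14 at 3 months, its change with age 0, rapamycin in TSCmKO 19 and 25, rapamycin in CON 1 and 2, the response difference at 3 months 3, age in CON 0, and treated genotypes 3 and 9. Without the 4 libraries of high short transcripts, chosen after seeing the data, genotype at 3 months gave 10, its change with age 3, rapamycin in TSCmKO at 3 months 25, in CON at 9 months 7, the response differences 2 and 1, age in CON 0, and treated genotypes 8 and 6. Without the 7 libraries of outlying slope, also chosen after seeing the data, the values were 11 for genotype at 3 months, 2 for its change with age, 28 for rapamycin in TSCmKO at 3 months, 2 for the response difference at 3 months, 7 for age in CON and 7 for treated genotypes at 3 months. With the length slope as a covariate, likewise added, genotype at 3 months gave 19, its change with age 4, rapamycin in TSCmKO at 3 months 30, in CON 15 and 1, the response difference at 3 months 3, age in TSCmKO 26 and treated genotypes 13 and 11. In that fit age in CON gave 3, all lower, where the reported 2 were higher. Without the filter the change of genotype with age gave 0, age in CON 1 and treated genotypes at 3 months 0, and with insert size as a covariate these were 0, 0 and 1, with 9 for age in TSCmKO. DESeq2 gave 2 for the change of genotype with age, 1 for the response difference at 3 months and 6 for age in CON. Upper-quartile scaling gave 8 for rapamycin in CON at 9 months (3 higher, 5 lower), 1 for the response difference at 3 months and 3 for treated genotypes at 9 months. Rapamycin in TSCmKO at 3 months was then split into 8 higher and 5 lower. The causes of these changes were not tested.

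Leaving out single libraries gave 7 to 25 for genotype at 9 months, 3 to 6 at 3 months and 0 to 3 for its change with age, 23 to 39 and 11 to 16 for rapamycin in TSCmKO, 2 to 7 and 0 for rapamycin in CON, 0 to 3 and 0 to 1 for the response difference, 0 to 19 and 36 to 49 for age in CON and TSCmKO, and 2 to 9 and 0 to 2 for treated genotypes. The 7 came without 9mTSCmKO replicate 3, the 25 without 9mCON replicate 2 and the 19 without 9mCON replicate 5. Of called named members, 15 of 25 for rapamycin in TSCmKO at 9 months, 10 of 15 at 3 months, 2 of 13 for genotype at 9 months and 2 of 33 for age in TSCmKO passed under every alternative, and no named gene reversed.

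Same-numbered libraries did not deviate together (mean r of 0.00823 over 140 pairs of libraries, against -0.000963 over 560 others), so no pairing by number was seen. A pairing with little effect on these levels would not show in such correlations. With the replicate block age in CON gave 1 called member, rapamycin in TSCmKO 30 and 15, genotype at 9 months 14 and age in TSCmKO 46.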
